A study of Mus musculus with 22 samples.

Results

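The genes described here are 5 potassium channel genes of microglia, the resident macrophages of the brain: Kcnk13, Kcnk6, Kcna3, Kcnj2 and Kcnn4. They were taken from the deposited gene-level count table by their symbols, and all 5 were found among its 54532 rows. The rule that picks them uses symbols only. All 5 passed the filter on low counts that left 16554 genes to be tested.

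Potassium channels let potassium leave the cell and so hold the membrane potential negative, which sets the driving force for calcium entry and for ion-coupled transport. In microglia the tandem-pore channel THIK-1, encoded by Kcnk13, carries the resting potassium current and is tied to the movement of ramified processes. TWIK-2, encoded by Kcnk6, is a tandem-pore channel described in macrophages as a path for the potassium efflux that precedes assembly of the NLRP3 inflammasome. The other members are a delayed rectifier that opens on depolarisation and is known from activated microglia and T cells (Kcna3), a strong inward rectifier that stabilises the resting potential (Kcnj2), and a channel opened by intracellular calcium through calmodulin (Kcnn4).

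The libraries were made from polyadenylated RNA of microglia sorted from whole brain as live cells with intermediate CD45, with CD11b and without CD11a. All mice were male C57BL/6J, were injected for 10 days from an age of 10 weeks, and were then aged to 17.5 months. Control (Ctrl) mice received vehicle in that period, and Gulf War (GW) mice received pyridostigmine bromide at 0.7 mg/kg, a cholinesterase inhibitor, with the insecticide permethrin at 200 mg/kg. Some GW mice were later given cannabidiol (CBD), a non-intoxicating cannabinoid, at 30 mg/kg by intraperitoneal injection each day for 28 days and every 2 days for 2 further weeks; the remaining Ctrl and GW mice had its vehicle, so no group had CBD without the GW agents. On the morning after the last dose, mice received 0.33 mg/kg of lipopolysaccharide (LPS), a bacterial cell wall component that activates innate immune cells, or phosphate-buffered saline (PBS), and brains were taken 24 hours later. The groups were Ctrl-PBS (4 libraries), Ctrl-LPS (4), GW-PBS (4), GW-LPS (3), GW-CBD-PBS (3) and GW-CBD-LPS (4). Whether a library holds 1 mouse or a pool is not given in the sources used here. If libraries of a group came from the same cells or the same pool, the p-values measure technical spread only. If each library holds its own pool, they measure the spread between pools and not between mice.

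The 22 libraries held between 28676930 and 40458326 counts. All 8 microglial markers were detected in each group, and their summed level ranged from 20200 to 47300 CPM, the counts per gene scaled to one library total. The summed level of 10 neutrophil markers was 25500 CPM in Ctrl-PBS library 3, 2200 CPM in Ctrl-LPS library 1 and 1560 CPM in GW-PBS library 1, against 1.3 to 318 CPM in the other 19 libraries. Results called below are given also without these 3 libraries where that changes the call. Levels are given as CPM with library sizes scaled by edgeR's trimmed mean of M-values, and levels of different genes are compared only after division by exon length. In sorted bulk cells, fewer cells that express a gene and less RNA per cell cannot be told apart.

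On the mouse genome GRCm38, Kcnk13 (ENSMUSG00000045404) lies on the plus strand of chromosome 12 from 99964499 to 100062682, and Kcnk6 (ENSMUSG00000046410) on the minus strand of chromosome 7 from 29221926 to 29232515. Kcna3 (ENSMUSG00000047959) lies on the plus strand of chromosome 3 from 107036169 to 107038070, Kcnj2 (ENSMUSG00000041695) on the plus strand of chromosome 11 from 111066164 to 111076821, and Kcnn4 (ENSMUSG00000054342) on the plus strand of chromosome 7 from 24370263 to 24386690. All are protein-coding in GENCODE M21. Kcna3 is overlapped on the other strand by the antisense gene Gm27008 and Kcnk13 by the microRNA gene Gm23291, which had 0 to 3 counts a library.

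The sequences shown are the 250 bases before the annotated start of Kcnj2 (chr11:111065914-111066163, plus strand) and of Kcna3 (chr3:107035912-107036161, plus strand), the 2 members called in the LPS comparisons below, which moved in opposite directions. They come from RefSeq on GRCm38.p6, in which 4 of the 5 members were matched and Kcnk6 was not. Capitals mark matches to the motifs searched, read 5′ to 3′.
Kcnj2: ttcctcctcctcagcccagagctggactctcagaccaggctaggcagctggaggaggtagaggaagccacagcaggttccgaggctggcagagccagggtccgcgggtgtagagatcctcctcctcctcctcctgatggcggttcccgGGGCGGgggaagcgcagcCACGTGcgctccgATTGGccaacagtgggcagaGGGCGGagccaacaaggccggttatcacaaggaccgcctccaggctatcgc
Kcna3: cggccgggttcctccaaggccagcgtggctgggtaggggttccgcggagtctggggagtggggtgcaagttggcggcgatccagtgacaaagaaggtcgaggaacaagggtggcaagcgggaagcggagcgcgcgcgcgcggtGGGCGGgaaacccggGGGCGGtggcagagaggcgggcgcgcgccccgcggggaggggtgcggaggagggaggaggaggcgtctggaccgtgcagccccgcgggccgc
Both strands were searched for 8 motifs. The E-box was searched as CACGTG and the GC box as GGGCGG, and the CCAAT box was taken by those letters alone. The AP-1 motif was searched as TGANTCA, while the cyclic AMP response element (CRE) was TGACGTCA and the PU.1-type motif was GAGGAAGT. The NF-kB motif and an interferon-response (ISRE-type) motif are given by name. The Kcnj2 window held an E-box at -84, GC boxes at -102 and -51 and a CCAAT box at -71, counted from the start, whereas the Kcna3 window held GC boxes at -107 and -92 and none of the other motifs. Of 32851 windows of the same length, 6.02% held the E-box, 32.7% the GC box, 33.8% CCAAT, 6.75% AP-1, 1.55% the CRE, 2.98% the ISRE type, 2.44% the PU.1 type and 7.25% the NF-kB motif. Among the other members, the Kcnn4 window held an E-box at -133, an NF-kB match at -33 and a GC box at -14, and the Kcnk13 window held none. These matches are descriptions of the sequence and not binding sites.

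Kcnk13 and Kcnk6 were the most abundant potassium channel transcripts per kilobase of exon, at means of 53.0 and 50.3 CPM per kilobase over the 22 libraries. Next in order were Kcnk12, which encodes THIK-2, at 15.6, the A-type channel gene Kcnd1 at 14.0, the channel-interacting protein gene Kcnip3 at 13.1 and the inward rectifier gene Kcnj12 at 6.98. Kcna3 followed at 3.91, Kcnj2 at 2.92 and Kcnn4 at 1.67. Of 95 genes listed as potassium channels or their auxiliary subunits, 49 passed the filter, and the 46 others averaged at most 0.104 CPM. The 5 members are therefore a part of a repertoire in which 17 genes averaged at least 1 CPM.

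**Figure D1:**
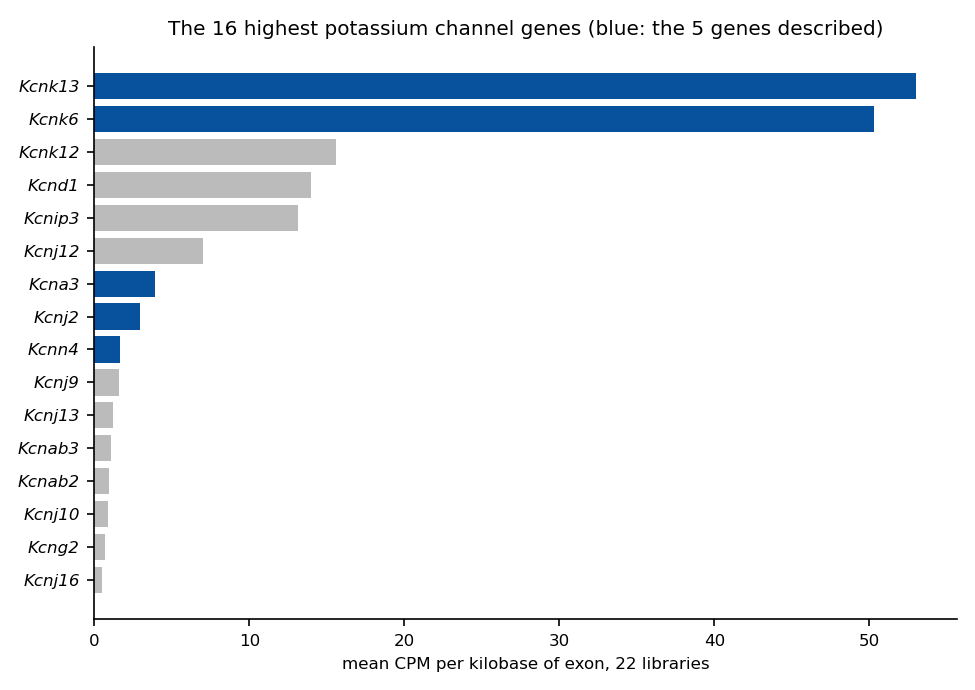
Mean level of the 16 highest potassium channel genes in CPM per kilobase of exon over 22 libraries, with the 5 members in blue. The bars of Kcnk13 and Kcnk6, at 53.0 and 50.3, are more than 3 times as long as that of Kcnk12 at 15.6.

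Kcnk13 and Kcnk6 together held a larger share of the summed potassium channel level per kilobase in the LPS groups without CBD. Their share was 49.3% to 55.3% in Ctrl-PBS and 67.2% to 74.1% in Ctrl-LPS. It was 54.4% to 58.2% in GW-PBS and 67.8% to 74.7% in GW-LPS, so that the ranges with and without LPS did not overlap in either arm. In the CBD-treated mice the share was 55.7% to 59.5% without LPS and 55.6% to 62.4% with it, and these ranges overlapped. A share moves with all genes in its sum, which here includes auxiliary subunit genes. From Ctrl-PBS to Ctrl-LPS, mean CPM per kilobase went from 54.8 to 48.0 for Kcnk13 and from 41.7 to 49.2 for Kcnk6. For the next genes in order it went from 21.5 to 7.22 (Kcnk12), 15.9 to 6.28 (Kcnd1) and 16.3 to 8.62 (Kcnip3). From GW-PBS to GW-LPS it went from 56.7 to 48.5 for Kcnk13 and from 46.8 to 63.2 for Kcnk6. The levels of the members themselves follow.

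**Figure D2:**
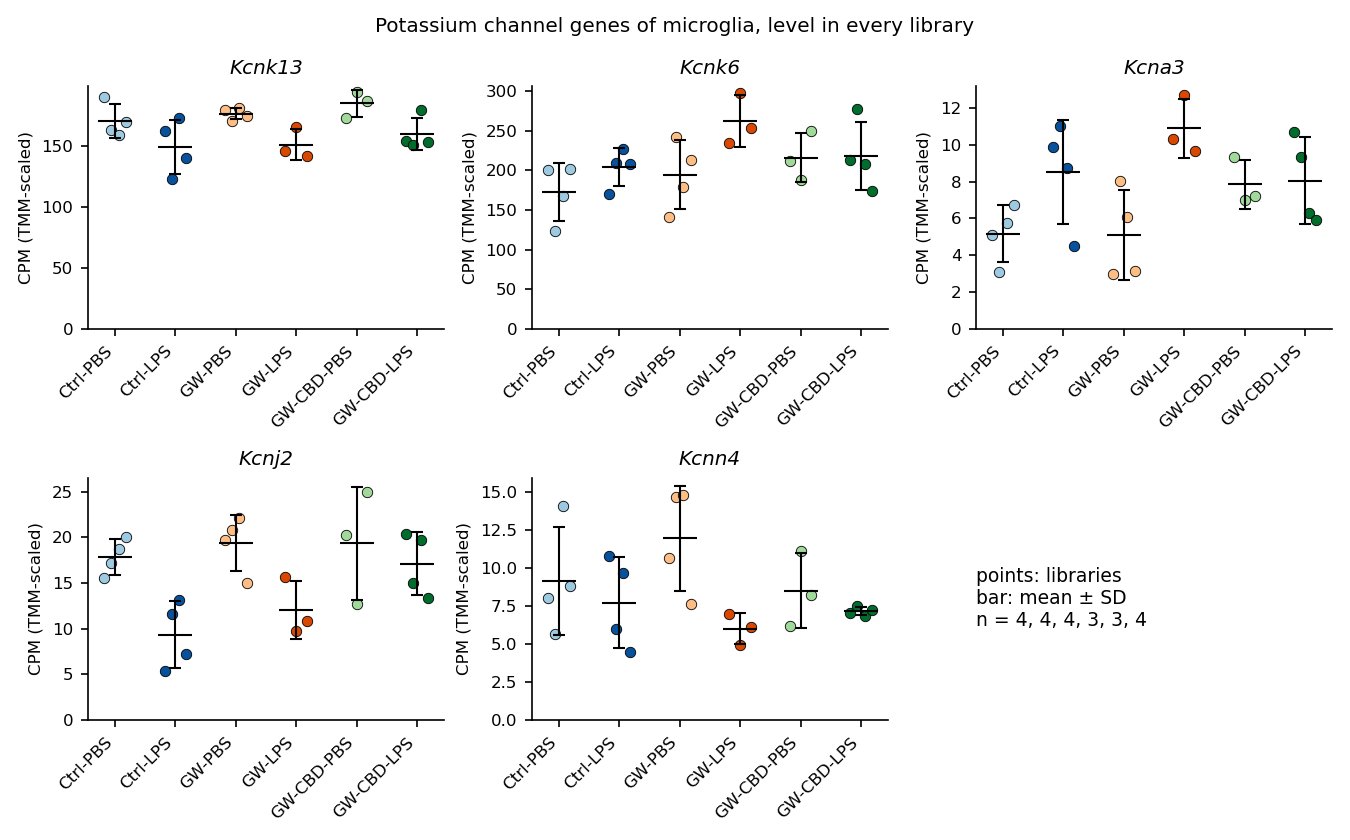
Level of each member in every library (points), with the mean and SD of each group (bars), in CPM with scaled library sizes on a linear axis from 0. Kcnj2 lies lower in the 4 Ctrl-LPS libraries (5.37 to 13.2) than in the 4 Ctrl-PBS libraries (15.5 to 20.0), while the Kcnk13 points stay between 122.7 and 194.1 in all groups.

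Kcnk13 varied little between groups. In Ctrl-PBS libraries 1 to 4 its level was 189.9, 163.1, 159.0 and 169.6 CPM, and in Ctrl-LPS it was 162.0, 122.7, 172.5 and 139.9 CPM. GW-PBS libraries had 179.3, 170.5, 180.7 and 174.7 CPM and the GW-LPS libraries 2, 3 and 4 had 146.1, 165.5 and 141.5 CPM. Every GW-LPS library was thus below every GW-PBS library, whereas the Ctrl-PBS and Ctrl-LPS ranges overlapped. In the CBD-treated mice the level was 173.1, 194.1 and 187.2 CPM without LPS (libraries 2, 3 and 4) and 154.4, 150.9, 179.1 and 153.4 CPM with LPS. The fitted log2 difference with LPS was -0.19 ± 0.11 (SE, 95% interval -0.41 to 0.03, adjusted p = 0.215) in control mice, -0.22 ± 0.11 (-0.46 to 0.02, adjusted p = 0.241) in GW mice and -0.21 ± 0.11 (-0.45 to 0.02, adjusted p = 0.515) in CBD-treated GW mice. All 3 estimates were of like size and none passed the threshold of an adjusted p under 0.05 in edgeR's quasi-likelihood test, which is used throughout. Without Ctrl-LPS library 3 the difference in control mice did pass that test (adjusted p = 0.0479). An alternative test, limma voom, called Kcnk13 with LPS in GW mice and in CBD-treated GW mice. Group means ran from 185 ± 10.7 CPM (SD, n = 3) in GW-CBD-PBS, through GW-PBS, Ctrl-PBS, GW-CBD-LPS and GW-LPS, to 149 ± 22.3 (n = 4) in Ctrl-LPS, and the ranges of all neighbours in that order overlapped.

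Kcnk6 had its highest group mean in the GW mice given LPS. The GW-LPS libraries had 234.4, 298.0 and 254.1 CPM, all above the Ctrl-LPS libraries at 170.6, 209.9, 227.7 and 208.0 CPM and above the Ctrl-PBS libraries at 200.0, 123.9, 167.1 and 201.2 CPM. GW-PBS libraries had 141.7, 242.7, 179.3 and 213.6 CPM, of which library 2 lay inside the GW-LPS range. With CBD the level was 211.6, 187.4 and 249.3 CPM without LPS and 213.7, 277.9, 208.0 and 173.4 CPM with LPS. These ranges overlapped each other, and each also overlapped that of GW-LPS. The log2 difference with LPS was 0.43 ± 0.19 (SE, 95% interval 0.03 to 0.83, adjusted p = 0.168) in GW mice, 0.24 ± 0.18 (-0.13 to 0.61, adjusted p = 0.373) in control mice and 0.01 ± 0.19 (-0.39 to 0.42, adjusted p = 0.989) in CBD-treated GW mice, and none passed the test. With limma voom, Kcnk6 was called with LPS in GW mice, as was every other member. GW against control mice with LPS differed by 0.36 ± 0.19 (adjusted p = 0.392), also short of the threshold although the ranges did not overlap. The order of group means was GW-LPS (262 ± 32.6, SD, n = 3), GW-CBD-LPS, GW-CBD-PBS, Ctrl-LPS, GW-PBS and Ctrl-PBS (173 ± 36.4, n = 4), and all neighbours overlapped.

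Kcna3, the voltage-gated member, rose with LPS in GW mice. GW-PBS libraries had 3.00, 8.05, 6.10 and 3.16 CPM (100 to 274 counts), and GW-LPS libraries had 10.3, 12.7 and 9.69 CPM (335 to 441 counts), with no overlap. The log2 difference was 1.10 ± 0.34 (SE, 95% interval 0.39 to 1.82, adjusted p = 0.047), a 2.14-fold higher level. In control mice the level was 5.09, 3.09, 5.77 and 6.74 CPM without LPS and 9.86, 11.0, 8.75 and 4.49 CPM with LPS, so 3 of 4 Ctrl-LPS libraries exceeded all Ctrl-PBS libraries and library 4 did not. That difference was 0.72 ± 0.32 (0.05 to 1.39, adjusted p = 0.12) and did not pass, and the difference between the LPS responses of GW and control mice was 0.38 ± 0.47 (adjusted p = 0.738), so the responses were not shown to differ. In the CBD-treated mice the level was 9.36, 6.99 and 7.20 CPM without LPS and 10.7, 9.36, 6.27 and 5.89 CPM with LPS, with a difference of 0.04 ± 0.34 (-0.68 to 0.76, adjusted p = 0.982). All 3 GW-CBD-PBS libraries were above all 4 Ctrl-PBS libraries, whose group mean was next below. This pair differs in both exposure and CBD, and its difference was not tested. It was the one pair of neighbours in the order of Kcna3 means that did not overlap. From the top, that order was GW-LPS, Ctrl-LPS, GW-CBD-LPS, GW-CBD-PBS, Ctrl-PBS and GW-PBS, from 10.9 ± 1.57 CPM (SD, n = 3) to 5.08 ± 2.44 (n = 4). The LPS difference in CBD-treated GW mice minus that in untreated GW mice was -1.06 ± 0.49 (-2.07 to -0.05, adjusted p = 0.306) and did not pass.

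The Kcna3 call in GW mice was the least firm of those on the members. It remained in 1 of 7 fits that each left out 1 library of these groups, the one without GW-PBS library 2 (adjusted p = 0.0123), and was lost without any of the other 6 (adjusted p up to 0.154) and when the 3 libraries high in neutrophil genes were left out together (log2 difference 0.90, adjusted p = 0.147). Summed over 6 markers of border-associated macrophages, all detected, the level was 169 to 273 CPM in GW-PBS and 358 to 573 CPM in GW-LPS, which did not overlap. The markers did not all move alike. Cd163, F13a1 and Lyve1 were called higher, Mrc1 and Cbr2 were not called, and Pf4 was lower without passing (log2 difference -0.86, adjusted p = 0.155). The part of border-associated macrophages in the Kcna3 result was not tested. For 8 markers of T and NK cells, which also express Kcna3, the sum was 0.984 to 3.63 CPM in GW-PBS and 0.549 to 2.22 CPM in GW-LPS, with overlapping ranges. Gm27008, the antisense gene over Kcna3 chosen for its position after values were seen, moved the other way: it fell from 15.1 ± 3.13 CPM (SD, n = 4) in GW-PBS to 5.83 ± 1.97 (n = 3) in GW-LPS (log2 difference -1.38 ± 0.31, adjusted p = 0.00874) and from 14.6 ± 3.14 to 4.39 ± 1.82 CPM (both n = 4) in control mice (-1.73 ± 0.29, adjusted p = 0.00023). The libraries were stranded per the labels, but the strand setting of the counting is not given in the sources used here.

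Kcnj2, the inward rectifier, fell with LPS in control mice. Its level was 15.5, 17.2, 18.7 and 20.0 CPM in Ctrl-PBS (509 to 717 counts) and 5.37, 11.6, 13.2 and 7.25 CPM in Ctrl-LPS (153 to 501 counts), and the ranges did not overlap. The log2 difference was -0.93 ± 0.25 (SE, 95% interval -1.46 to -0.40, adjusted p = 0.0127), which is 0.525 of the PBS level. GW-PBS libraries had 19.7, 20.8, 22.1 and 15.0 CPM and GW-LPS libraries 15.7, 9.71 and 10.8 CPM, where GW-PBS library 4 and GW-LPS library 2 crossed. The difference in GW mice was -0.68 ± 0.28 (-1.26 to -0.11, adjusted p = 0.128) and did not pass, and the responses of GW and control mice differed by 0.25 ± 0.37 (adjusted p = 0.786). With CBD the level was 20.3, 12.7 and 25.0 CPM without LPS and 20.4, 15.0, 19.7 and 13.4 CPM with LPS (difference -0.17 ± 0.27, -0.73 to 0.39, adjusted p = 0.878). All 4 GW-CBD-LPS libraries were above all 4 Ctrl-LPS libraries, a pair that differs in both exposure and CBD. Means ran from 19.4 ± 3.11 CPM (SD, n = 4) in GW-PBS, through GW-CBD-PBS, Ctrl-PBS, GW-CBD-LPS and GW-LPS, to 9.36 ± 3.67 (n = 4) in Ctrl-LPS, with overlap between all neighbours.

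The Kcnj2 call in control mice held in all 8 fits that left out 1 library (adjusted p up to 0.0486). Without the 3 libraries with raised neutrophil markers, which takes out the lowest Ctrl-LPS library, the difference was -0.73 and the call was lost (adjusted p = 0.0793). Summed over 6 markers each, all detected, pericyte genes were at 4.91 to 13.5 CPM in Ctrl-PBS and 1.72 to 3.21 CPM in Ctrl-LPS, and endothelial genes, from cells that express Kcnj2, at 41.1 to 92.4 CPM and 13.9 to 30.7 CPM. Oligodendrocyte markers were at 385 to 613 CPM and 240 to 351 CPM. These 3 marker sums were lower with LPS without overlap. Within them, Mag (oligodendrocyte, log2 difference 0.17, adjusted p = 0.309) and Kcnj8 (pericyte, 0.09, adjusted p = 0.97) were higher without passing. The part of these sums in the Kcnj2 result was not tested.

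Kcnn4, the calcium-activated member, was lower with LPS in GW mice but stopped short of the threshold. Its level was 10.7, 14.7, 14.8 and 7.62 CPM in GW-PBS (272 to 530 counts) and 6.98, 4.94 and 6.13 CPM in GW-LPS (172 to 273 counts), with no overlap. The log2 difference was -0.99 ± 0.32 (SE, 95% interval -1.65 to -0.32, adjusted p = 0.055), against a 0.05 threshold. It passed with DESeq2 (adjusted p = 0.0184), without GW-PBS library 4 (0.0368) and with the 3 libraries high in neutrophil genes left out (0.0369). It also passed with limma voom (0.00652), which called every member in this comparison. It did not pass when any other single library was left out (adjusted p up to 0.187), with no filter on low counts or in a fit of these groups alone. In control mice the level was 8.07, 5.66, 14.1 and 8.84 CPM without LPS and 10.8, 6.00, 9.67 and 4.49 CPM with LPS, which overlapped. The highest of these, 14.1 CPM, was in Ctrl-PBS library 3, the library with the highest neutrophil marker sum, and Kcnab2, a beta subunit gene, was also highest there at 18.8 CPM against 2.18 to 6.56 CPM elsewhere. The part of neutrophils in these values was not tested. The LPS difference of Kcnn4 in control mice was -0.25 ± 0.29 (-0.85 to 0.36, adjusted p = 0.589), and the responses of GW and control mice differed by -0.74 ± 0.43 (adjusted p = 0.454).

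In the CBD-treated mice Kcnn4 was at 6.18, 11.1 and 8.24 CPM without LPS and 7.05, 7.49, 6.87 and 7.23 CPM with LPS, the narrowest group of that gene. The difference was -0.25 ± 0.31 (SE, adjusted p = 0.838). Kcnn4 means ran from 11.9 ± 3.46 CPM (SD, n = 4) in GW-PBS, through Ctrl-PBS, GW-CBD-PBS, Ctrl-LPS and GW-CBD-LPS, to 6.02 ± 1.02 (n = 3) in GW-LPS, and all neighbours overlapped.

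Counted together, 1 of the 5 members (20%) was called with LPS in control mice, where 20.4% of all tested genes were called, and 1 of 5 with LPS in GW mice, where 9.53% were called. The share in control mice is that of the background, and with 5 genes a single call cannot be read against 9.53%. With LPS in CBD-treated GW mice edgeR called 0 of 5, against 0.417% of all genes. There, 0 members were under an unadjusted p of 0.05, DESeq2 called 0 and limma voom called 1, Kcnk13 (log2 difference -0.24, adjusted p = 0.0153).

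The exposure itself moved no member past the threshold. GW against control mice gave 0 of 5 calls without LPS and 0 of 5 with LPS by edgeR, 0 at an unadjusted p under 0.05 and 0 by DESeq2 and by limma voom, and 0% of all tested genes were called in either comparison. Without LPS the log2 differences lay between -0.03 ± 0.32 for Kcna3 and 0.38 ± 0.29 for Kcnn4 (SE). For Kcnk13 the 95% interval was -0.17 to 0.27, the narrowest of the 5, and for Kcna3 it was -0.70 to 0.65, the widest, so that a change of 1.5-fold either way lies within the interval of Kcna3.

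CBD in GW mice likewise gave 0 of 5 calls without LPS (0% of all genes called) and 0 of 5 with LPS (2.31% of all genes called). At an unadjusted p under 0.05 there were 0 in either, and DESeq2 called 0 in both. limma voom called 0 without LPS and 1 with LPS, Kcnj2 (log2 difference 0.71, adjusted p = 0.0139), for which edgeR gave 0.50 ± 0.27 (SE, adjusted p = 0.426). The other members differed with CBD under LPS by -0.43 ± 0.34 (Kcna3), -0.26 ± 0.19 (Kcnk6), 0.25 ± 0.32 (Kcnn4) and 0.08 ± 0.11 (Kcnk13). Without LPS the largest were 0.63 ± 0.34 for Kcna3 (adjusted p = 0.557) and -0.49 ± 0.31 for Kcnn4 (adjusted p = 0.589). These comparisons share the GW-LPS or the GW-PBS libraries with the LPS comparison in GW mice.

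The tests of whether the LPS response differed gave 0 of 5 calls between GW and control mice (0% of all genes) and 0 of 5 between CBD-treated and untreated GW mice (0.0181% of all genes). At an unadjusted p under 0.05 these were 0 and 1 members, the 1 being Kcna3, and DESeq2 and limma voom called 0 in both.

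**Figure D3:**
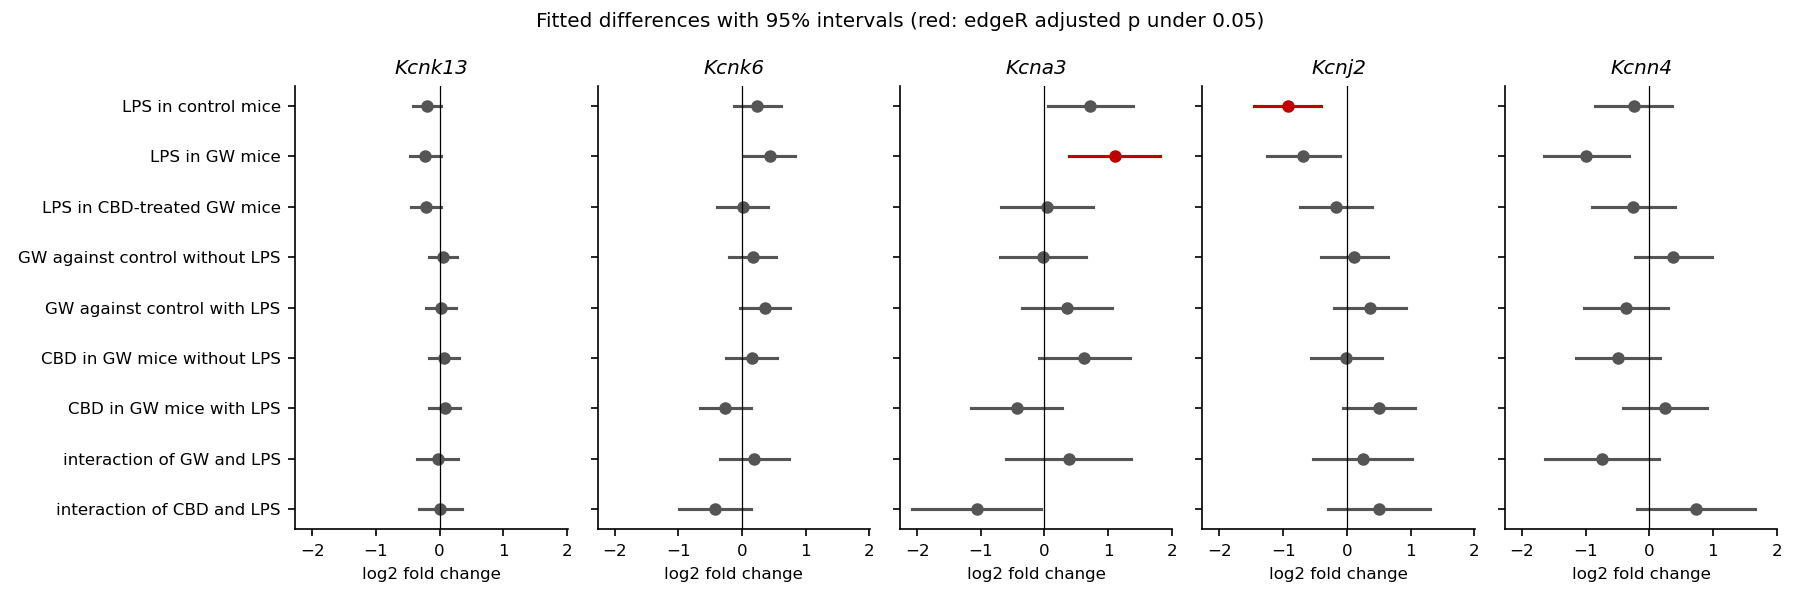
Fitted log2 fold change of each member (points) with its 95% interval (lines) in the 9 comparisons, with red for an edgeR adjusted p under 0.05. The red points are Kcnj2 with LPS in control mice (-0.93) and Kcna3 with LPS in GW mice (1.10), and the intervals of Kcnk13 are the narrowest in every row.

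Around the members, the wider potassium channel list was mostly lower with LPS. In control mice 12 of 49 tested genes were called (24.5%, against 20.4% of all genes), 10 lower and 2 higher, with a median log2 difference of -0.93 against -0.02 over all genes. In GW mice 10 were called (20.4%, against 9.53%), 8 lower and 2 higher, with a median of -0.96 against -0.04. The 2 comparisons share no library but were tested in 1 fit with a shared estimate of the spread. In both, 7 genes were called, which is 58.3% of the control calls and 70% of the GW calls: Kcnip3, Kcnk12, Kcnj12, Kcnj9, Kcnma1, Kcnab3 and Kcng2. The share of all tested genes called in both is not given here, so these shares have no background to stand against. In CBD-treated GW mice 0 of 49 were called by edgeR, against 0.417% of all genes. There, 4 of the 49 had an unadjusted p under 0.05, and DESeq2 called 1 and limma voom 4. Summed microglial markers were lower with LPS too, at 35700 to 47300 CPM against 20200 to 30100 CPM in control mice and 36200 to 42100 CPM against 28400 to 32100 CPM in GW mice. In GW mice the sums of B cell (47.8 to 79.3 against 32.9 to 36.8 CPM), erythroid (259 to 1570 against 65.8 to 137 CPM), endothelial (27.4 to 58.1 against 16.1 to 22.9 CPM) and neuronal markers (3.87 to 6.16 against 1.58 to 3.74 CPM) were also lower without overlap. The markers within these sums did not all move alike. In GW mice Csf1r (microglial, log2 difference 0.10, adjusted p = 0.797) and Tubb3 (neuronal, 0.92, adjusted p = 0.604) were higher without passing. Of the neuronal markers, Rbfox3 was called lower (adjusted p = 0.0383), and Snap25, Syt1 and Slc17a7 were lower without passing. The part of any of these sums in the channel differences, Kcnn4 included, was not tested. The count in GW mice was 3 without GW-LPS library 3, 5 without GW-PBS library 3 or GW-LPS library 4, and 2 in a fit of these groups alone.

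The counts by family stand against 20.4% of all genes called in control mice and 9.53% in GW mice. By family, 1 of 7 tested tandem-pore genes was called in control mice and 2 of 7 in GW mice, all lower. Of 8 inward rectifiers, 4 were lower in control mice and 2 in GW mice. Of 18 voltage-gated genes, 2 were called in control mice, both lower, and 3 in GW mice, of which Kcna3 was the higher one. Of 5 calcium- or sodium-activated genes, 1 was lower and 1 higher in control mice and 1 was lower in GW mice. Of 11 auxiliary subunit genes, 2 were lower and 1 higher in control mice, and 1 was lower and 1 higher in GW mice. The called genes Kcnt1, Kcnmb1 and Kcnk9 averaged below 1 CPM over all libraries and are not described further.

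Kcnk12, whose product THIK-2 is the closest relative of THIK-1, fell where Kcnk13 did not pass. Its level was 36.5 to 47.8 CPM in Ctrl-PBS and 9.61 to 17.6 CPM in Ctrl-LPS, and 35.4 to 51.2 CPM in GW-PBS and 10.2 to 17.9 CPM in GW-LPS, with no overlap in either arm. The log2 differences were -1.57 ± 0.21 (SE, adjusted p = 2.53e-05) and -1.60 ± 0.23 (adjusted p = 0.000226). In the CBD-treated mice it was at 35.9 to 40.8 CPM without LPS and 21.3 to 39.7 CPM with LPS (-0.24 ± 0.22, adjusted p = 0.749). A difference between the changes of Kcnk12 and Kcnk13 was not tested.

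Kcnj12, which encodes the inward rectifier Kir2.2, and Kcnma1, which encodes the large-conductance calcium-activated channel, also fell with LPS in both arms without CBD. Kcnj12 was at 24.0 ± 3.78 CPM (SD, n = 4) in Ctrl-PBS and 5.47 ± 3.44 (n = 4) in Ctrl-LPS, a log2 difference of -2.13 ± 0.34 (SE, adjusted p = 0.000147). In GW mice it fell by 1.38 ± 0.36 (adjusted p = 0.02), a call lost without GW-PBS library 1, GW-LPS library 3 or GW-LPS library 4, and the fall was 2.01 without GW-LPS library 2. Kcnma1 was at 7.97 ± 0.705 CPM in Ctrl-PBS and 1.47 ± 0.287 in Ctrl-LPS (n = 4 each; -2.44 ± 0.36, adjusted p = 6.51e-05), and fell by 1.64 ± 0.38 in GW mice (adjusted p = 0.00973). In CBD-treated GW mice neither passed, with LPS differences of -0.25 ± 0.34 (adjusted p = 0.855) and -0.07 ± 0.36 (adjusted p = 0.97).

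Kcnd1, which encodes an A-type voltage-gated channel, fell by 1.34 ± 0.25 (SE, adjusted p = 0.000728) in control mice and was -0.78 ± 0.27 (adjusted p = 0.0721) in GW mice, short of the threshold. Kcnip3, which encodes a calcium-binding partner of such channels, fell by 0.92 ± 0.16 (adjusted p = 0.000356) in control mice. In GW mice Kcnip3 fell by 0.56 ± 0.17 (adjusted p = 0.0452), a call that held in 1 of 7 fits with 1 library left out, the one without GW-PBS library 1. Kcnj9, a G-protein-coupled inward rectifier gene, fell by 2.12 ± 0.39 (adjusted p = 0.000595) and 1.80 ± 0.43 (adjusted p = 0.011), the latter lost without GW-LPS library 3. Kcng2, a silent modifier subunit gene, fell by 1.74 ± 0.32 (adjusted p = 0.000622) and 1.72 ± 0.35 (adjusted p = 0.00416). Kcnj16 at 2.66 ± 0.614 CPM in Ctrl-PBS and 0.854 ± 0.45 in Ctrl-LPS (SD, n = 4 each) was called in control mice (-1.64 ± 0.54, adjusted p = 0.0354), which was lost in 6 of 8 fits with 1 library left out.

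Kcnab3, a beta subunit gene, was the one other potassium channel gene above 1 CPM that rose. It was at 1.59 ± 0.717 CPM (SD, n = 4) in Ctrl-PBS and 6.69 ± 2.9 (n = 4) in Ctrl-LPS, a log2 difference of 2.07 ± 0.53 (SE, adjusted p = 0.00825). In GW mice the difference was 2.03 ± 0.56 (adjusted p = 0.0258), which was lost without GW-PBS library 3, GW-PBS library 4 or GW-LPS library 3. Levels in GW-LPS ran from 2.71 to 9.33 CPM with a median of 2.92, and without GW-LPS library 3 the difference was 1.22 (adjusted p = 0.221). Without LPS it had 37 to 101 counts a library in control mice and 13 to 68 in GW mice.

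**Figure D4:**
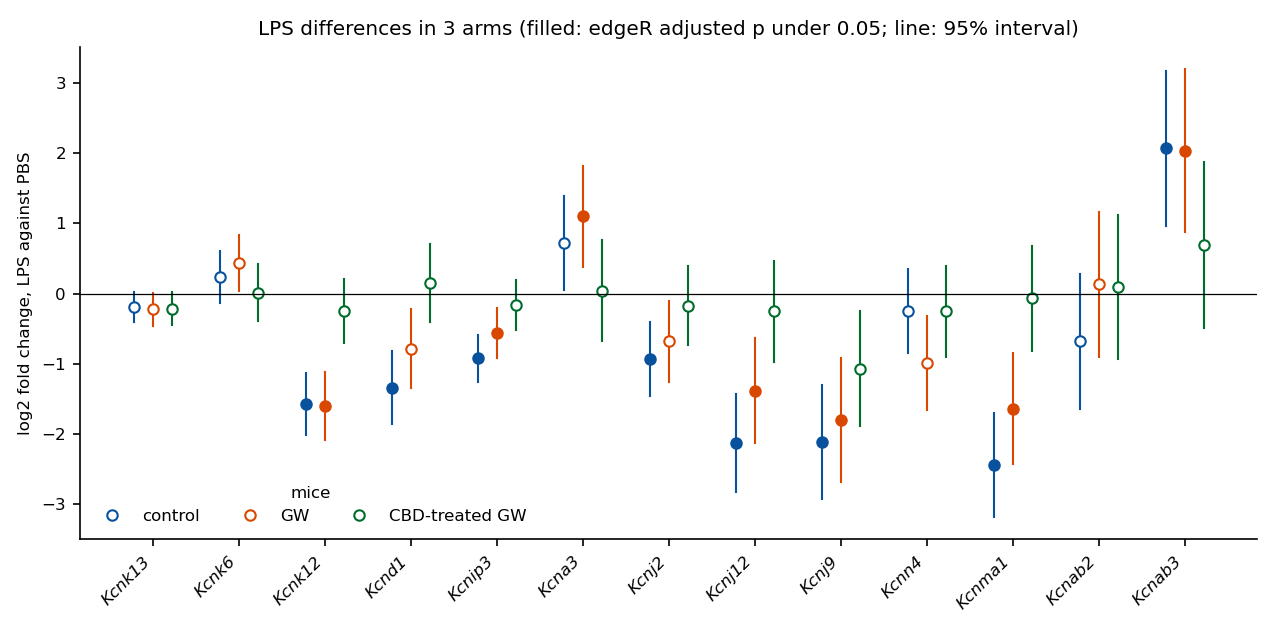
Fitted log2 fold change with LPS (points) and 95% interval (lines) in control, GW and CBD-treated GW mice for potassium channel genes, filled where the edgeR adjusted p was under 0.05. Kcnk13 and Kcnk6 lie within 0.43 of 0 in all 3 arms, whereas Kcnk12 lies at -1.57 and -1.60 in the first and second arms and at -0.24 in the third.

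With LPS, 4 of the 49 genes were higher in CBD-treated than in untreated GW mice (8.16%, against 2.31% of all genes), and 0 were lower. They were Kcnk12 (log2 difference 1.19 ± 0.23, SE, adjusted p = 0.00704), Kcnd1 (1.20 ± 0.28, adjusted p = 0.0221), Kcnma1 (1.65 ± 0.38, adjusted p = 0.0227) and Kcnj12 (1.47 ± 0.36, adjusted p = 0.0336, and 2.11 without GW-LPS library 2). GW-CBD-LPS levels of Kcnk12 were 31.8 ± 7.72 CPM (SD, n = 4) against 14.0 ± 3.83 (n = 3) in GW-LPS. None of the members is among them. The count fell to 0 without GW-LPS library 3 and in a fit of these groups alone, to 1 without GW-CBD-LPS library 1 or 3, and to 2 without GW-LPS library 4, and this comparison shares the GW-LPS libraries with that of LPS in GW mice. Summed microglial markers were 28400 to 32100 CPM in GW-LPS and 33900 to 43200 CPM in GW-CBD-LPS, with no overlap. The sums for endothelial markers (16.1 to 22.9 against 28.7 to 39.2 CPM), B cell markers (32.9 to 36.8 against 44.1 to 70.2 CPM) and neutrophil markers (12.4 to 204 against 1.3 to 11.2 CPM, with Ly6g, Camp and Elane at 0 in every GW-CBD-LPS library) did not overlap either. The part of any of these in these differences was not tested.

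For the list as a whole, the remaining comparisons gave 0 calls by edgeR, against at most 0.0181% of all genes. Unadjusted p-values under 0.05 numbered 2 and 4 for GW against control mice without and with LPS, 1 for CBD without LPS, 3 for the test of whether exposure altered the LPS response and 9 for the test of whether CBD did. DESeq2 and limma voom called 0 in the first 4 of these and 1 and 9 in the last. In that last test Kcnk12 was closest to the threshold, at 1.36 ± 0.32 (SE, adjusted p = 0.0748).

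P2ry12 encodes the purinergic ADP receptor of ramified microglia. It was at 5880 ± 969 CPM (SD, n = 4) in Ctrl-PBS and 1350 ± 288 (n = 4) in Ctrl-LPS, a log2 difference of -2.12 ± 0.20 (SE, adjusted p = 5.26e-07). In GW mice it fell by 1.66 ± 0.21 (adjusted p = 9.4e-05), and in CBD-treated GW mice the difference was -0.57 ± 0.20 (adjusted p = 0.275). With LPS it was higher with than without CBD (1.15 ± 0.21, adjusted p = 0.00519, lost without GW-LPS library 3).

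The list of 12 genes of potassium efflux and the NLRP3 inflammasome, which holds P2ry12 too, had 4 higher (Panx1, Casp1, Casp4 and P2rx4) and 2 lower (P2ry12 and Nek7) in control mice, against 20.4% of all genes called. In GW mice 1 was higher (Panx1) and 1 lower (P2ry12), against 9.53% of all genes called. The ATP-gated channel gene P2rx7 was at 181 ± 32.6 CPM (SD, n = 4) in Ctrl-PBS and 142 ± 22 (n = 4) in Ctrl-LPS and did not pass (adjusted p = 0.138), nor did Nlrp3, the inflammasome sensor, at 24.8 ± 2.13 and 28.2 ± 5.51 CPM (adjusted p = 0.543), or Il1b, the cytokine matured by it, at 118 ± 122 and 243 ± 163 CPM (adjusted p = 0.207). Without Ctrl-PBS library 3, the library highest in neutrophil markers, Il1b passed (log2 difference 2.02 in place of 1.04, adjusted p = 0.00757). In GW mice their adjusted p-values with LPS were 0.964 (P2rx7), 0.0885 (Nlrp3) and 0.549 (Il1b). Panx1, a large-pore channel gene, rose by 0.96 ± 0.14 (SE, adjusted p = 4.3e-05) in control mice and by 0.53 ± 0.14 (adjusted p = 0.0246) in GW mice, the latter lost without GW-PBS library 3, GW-LPS library 3 or GW-LPS library 4.

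Among 17 tested genes of calcium entry and its sensing, 2 rose and 2 fell with LPS in control mice, and 2 rose and 2 fell in GW mice, where 20.4% and 9.53% of all genes were called. Trpv4, a calcium-permeable channel gene, rose by 0.98 ± 0.21 (SE, adjusted p = 0.00224) in control mice and 0.92 ± 0.22 (adjusted p = 0.0125) in GW mice, the latter lost without GW-LPS library 3. Calm2, a calmodulin gene whose product is the calcium sensor of the Kcnn4 channel, fell by 0.86 ± 0.19 (adjusted p = 0.0069) in GW mice. In control mice it fell by 0.49 ± 0.17 (adjusted p = 0.0486), a call lost in 6 of 8 fits with 1 library left out and with the 3 libraries high in neutrophil genes left out. Of 21 other ion channel and pump genes, 1 rose and 5 fell in control mice, and 1 rose and 3 fell in GW mice, against the same shares of all genes. Hvcn1, the proton channel gene, fell by 0.45 ± 0.13 (adjusted p = 0.0159, lost without Ctrl-PBS library 1 or Ctrl-LPS library 4) and 0.55 ± 0.14 (adjusted p = 0.0166, lost without GW-PBS library 3, GW-LPS library 3 or GW-LPS library 4). Slc12a2, which encodes a sodium-potassium-chloride importer, fell by 2.02 ± 0.27 (adjusted p = 2.6e-05) in control mice and by 1.00 ± 0.29 (adjusted p = 0.0328) in GW mice, the latter lost in 5 of 7 fits with 1 library left out. Tmem206, the proton-activated chloride channel gene, fell by 0.88 ± 0.14 (adjusted p = 0.000155) in control mice and was -0.48 ± 0.15 (adjusted p = 0.0501) in GW mice.

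The genes whose level followed each member most closely were ranked by Pearson's r of log2 CPM over the 22 libraries, among 9152 protein-coding genes averaging 5 CPM or more. The libraries span 6 groups, so r holds group differences and library differences together, and it is given as a description. For Kcnk13 they were Insig2 (0.815), Slc5a10 (0.811) and Pex3 (0.799), and for Kcnk6 they were Atp7a (0.923), Angel1 (0.918) and Yipf6 (0.903). Kcna3 was followed most closely by Gatad2a (0.931), Pdcd6ip (0.922) and Copg1 (0.906), and Kcnj2 by Sncaip (0.917), Usp11 (0.914) and Nbea (0.911). For Kcnn4, Ch25h (0.777) and Srebf2 (0.75) were among them. No member was among the 3 genes closest to another member.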

How the data were processed

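Reads of 22 mouse microglia libraries were aligned to GRCm38/mm10, per the submitters' processing notes and the series' design text, and the authors deposited raw counts per gene. For aligner and counter, the name is not given in the sources used here. For 27 genes the symbol had become a date and was recovered through the gene ID; 54409 of 54532 IDs are in GENCODE M21. All libraries were fitted with 6 group means in edgeR 4.0.16 (R 4.3.3; TMM scaling, filterByExpr, quasi-likelihood test, Benjamini-Hochberg over 16554 genes, threshold 0.05). A SE is the size of the log2 difference over the root of F. Alternatives used RLE size factors, no filter, DESeq2 1.42.0, limma 3.58.1 (voom with quality weights), the compared groups alone, a replicate block, and each library left out. Leaving out the 3 libraries with raised neutrophil markers was chosen after seeing the data.

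The members and gene lists were chosen with earlier results of these data known. Named genes are the members, other potassium channel genes called or averaging at least 5 CPM, up to 4 called genes of the other lists per comparison with the smallest adjusted p, P2ry12, P2rx7, Nlrp3, Il1b, and the 3 genes most correlated with each member. Not all of these are reported here. Libraries are numbered as in their library names. Scripts were tested on simulated counts. Figures used matplotlib 3.10.9. Between 28676930 and 40458326 counts per library set the precision.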

Additional observations from a re-analysis of the deposited data

Results flagged for a closer look

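Kcnk13 in GW-CBD-LPS library 3, at 179.1 CPM, stood apart above the other 3 libraries of its group, which lay between 150.9 and 154.4 CPM. It was the 1 such value among 20 groups of 4 libraries examined over the 5 genes, and chance gives about 1 in 20. The level is inside the range of Kcnk13 in the PBS groups, 159.0 to 194.1 CPM.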

How the results depend on the processing

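Of 715 values of the 5 genes under the alternatives, 652 kept their direction and side of the threshold, 11 gained a call, 10 lost one and 42, in 8 of 45 results, changed sign. The low counts of Kcna3, Kcnj2 and Kcnn4 and groups of 3 or 4 libraries limit what can be seen. Where an alternative below changed a result, the cause was not tested.

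With LPS in control mice the members called were 1, from 1 to 2 with 1 library left out (2 without Ctrl-LPS library 3, which adds Kcnk13, or 4, which adds Kcna3) and 0 with the 3 libraries high in neutrophil genes left out. In GW mice the 1 call became 0 with no filter and in the groups alone, 2 with DESeq2, 5 with limma voom, and 0 to 1 with 1 library left out. limma voom called 1 member with LPS in CBD-treated GW mice and 1 for CBD with LPS. Of the potassium channel genes, the 10 called in GW mice became 20 with limma voom, 2 in the groups alone and 3 to 9 with 1 library left out. The 4 called for CBD with LPS became 8 with DESeq2, 13 with limma voom, 0 in the groups alone and 0 to 6 with 1 library left out. The 0 called with LPS in CBD-treated mice became 1 with DESeq2 and 4 with limma voom, and the 0 for the CBD and LPS interaction became 1, 9 and, with 1 library left out, 0 to 1.

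The labels do not say whether library numbers pair the samples. The correlation of deviations from group means had a median of 0.014 (-0.285 to 0.315) over 51 same-numbered pairs and 0.002 (-0.308 to 0.387) over 150 others. A correlation over all genes cannot exclude a pairing that touches only some of them. With a replicate block, potassium channel calls were 12 with LPS in control mice, 8 in GW mice and 3 for CBD with LPS, and member calls were 1, 1 and 0.

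Signs changed only in values that were not called. With 1 library left out, Kcna3 ranged from -0.129 to 0.162 with LPS in CBD-treated mice and from -0.338 to 0.147 for GW against control without LPS (0.207 without the 3 libraries). Under the same omissions Kcnj2 ranged from -0.403 to 0.039 with LPS in CBD-treated mice, Kcnk6 from -0.133 to 0.11 there (limma voom -0.104), and Kcnk13 from -0.066 to 0.109 for GW against control with LPS (limma voom -0.022). For CBD without LPS, Kcnj2 ranged from -0.212 to 0.224, with 0.00016 (RLE), 0.014 (no filter), 0.00051 (DESeq2), 0.133 (limma voom), 0.0047 (groups alone) and 0.0094 (without the 3 libraries). The Kcnk13 interaction of GW and LPS ranged from -0.115 to 0.075 (0.021 with no filter, 0.047 without the 3 libraries), and that of CBD and LPS from -0.05 to 0.063 (-0.0053 with no filter, -0.032 with the replicate block). P2rx7 with LPS in GW mice ranged from -0.095 to 0.115 (limma voom -0.1, without the 3 libraries -0.084), and Il1b with LPS in CBD-treated mice from -0.075 to 1.055.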
